A study of Mus musculus with 20 samples.

Results

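The baseline state of DC2 cells kept without flow was compared between static replicates 4 to 6 and static replicates 1 to 3. These are 6 of the 20 RNA-seq samples of the series, chosen by their replicate number. The unit of the values is TPM, a transcript abundance corrected for transcript length and for the total of the library. Of the 21509 genes in the table, the 11411 whose TPM averaged 1 or more over the 6 static libraries were tested. DC2 is an immortalized line derived from principal cells of the distal caput epididymis of the mouse, so that all replicates come from 1 line and stand for no separate animals. Cells were seeded in fibronectin-coated microchannels in medium with dihydrotestosterone and kept in low-serum medium. They then stayed static, or fluid was run over them for 3 h at 1 dyn/cm2 of shear (flow, 6 samples), and the other 8 samples received Ift88 or control siRNA. Neither the labels nor the methods name a date, passage, plate or sequencing run that separates replicates 1 to 3 from replicates 4 to 6. Differences of culture, library preparation and sequencing between the replicate sets cannot be told apart. The design text of the series speaks of 4 experiments and the methods of 6 replicates, so whether the 6 static libraries are independent cultures is not settled. The errors and p-values measure only the spread between these libraries, which may be technical.

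Principal cells are the most numerous cells of the epididymal epithelium and absorb, secrete and acidify the fluid in which sperm mature. Epithelial cells also take part in innate defence: they release chemokines, which attract leukocytes, and acute-phase and complement proteins, which bind microbes or their products. Many of these genes are switched on through NF-kB, a transcription factor held in the cytoplasm by the inhibitor encoded by Nfkbia. Low serum lets such cells leave the cell cycle and extend a primary cilium, the organelle the study examined as a sensor of flow.

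The promoters of 4 genes whose baseline level differed between the replicate sets are shown for the binding motifs they hold, 2 of genes lower in replicates 4 to 6 (Cxcl1 and Nfkbia) and 2 of genes higher there (Krt18 and Cldn4). The sequences are from RefSeq on GRCm38.p6, up to 250 bases before the RefSeq start and without bases that GENCODE M21 places inside the gene. They run 5′ to 3′ on the strand of the gene, and capitals mark matches to kappaB, the consensus site of NF-kB, or to AP-1 (TGACTCA), the site of Fos and Jun dimers, on either strand.
Cxcl1 (chr5:90890995-90891240, plus strand): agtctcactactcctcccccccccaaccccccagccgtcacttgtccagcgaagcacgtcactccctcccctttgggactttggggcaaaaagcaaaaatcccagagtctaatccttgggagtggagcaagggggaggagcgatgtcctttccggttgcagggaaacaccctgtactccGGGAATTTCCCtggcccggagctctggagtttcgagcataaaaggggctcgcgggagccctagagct
Nfkbia (chr12:55492648-55492897, minus strand): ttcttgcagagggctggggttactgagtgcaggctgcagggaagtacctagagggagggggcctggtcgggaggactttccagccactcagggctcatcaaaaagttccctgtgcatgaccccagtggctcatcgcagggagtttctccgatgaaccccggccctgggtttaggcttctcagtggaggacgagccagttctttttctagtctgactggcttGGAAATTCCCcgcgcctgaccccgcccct
Krt18 (chr15:102027966-102028179, plus strand): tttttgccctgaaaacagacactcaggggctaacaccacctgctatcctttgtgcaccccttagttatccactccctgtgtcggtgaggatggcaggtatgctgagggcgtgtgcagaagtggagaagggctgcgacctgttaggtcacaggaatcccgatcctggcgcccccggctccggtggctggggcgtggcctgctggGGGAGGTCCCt
Cldn4 (chr5:134946935-134947184, minus strand): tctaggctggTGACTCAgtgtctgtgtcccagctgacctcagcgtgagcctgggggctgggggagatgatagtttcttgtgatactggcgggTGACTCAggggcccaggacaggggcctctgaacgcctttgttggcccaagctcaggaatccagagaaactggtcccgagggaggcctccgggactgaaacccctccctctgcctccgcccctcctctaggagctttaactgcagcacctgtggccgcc
Counted back from the end of each printed sequence, the kappaB match began at base 67 in Cxcl1, where it overlapped another match on the other strand, at base 29 in Nfkbia and at base 11 in Krt18. The AP-1 matches of Cldn4 began at bases 240 and 158. kappaB was added to the search after values had been seen. It was found in 7.25% of all 32851 promoters of that table and in 8.82% of the 11740 promoters of genes tested. Among genes called lower, 9 of 56 promoters held it (16.1%), and among genes called higher 23 of 215 (10.7%), with calls as defined below. AP-1 was found in 4 of 56 promoters (7.14%) and 14 of 215 (6.51%), against 3.26% of promoters of genes tested. For the 10 called genes of the chemokine and acute-phase lists, 6 promoters were available. They were those of Lcn2, C3, Nfkbia and Cxcl1 and 2 overlapping ones of C1s1. Those of Nfkbia and Cxcl1, 2 of the 6, held kappaB. Motif matches are a description of these letters and were not tested.

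The 6 static libraries were of similar relative depth, estimated from the most common ratio between their values under 0.3 TPM. The depth relative to the median library ran from 1.00 to 1.06 for the first set, replicates 1 to 3, and from 0.938 to 0.996 for the second set, 4 to 6 (exact permutation test, two-sided, with p = 0.1, below which 3 against 3 cannot go). The genes above 0 numbered 15543 to 15709 in the first and 15669 to 16562 in the second set (exact p = 0.2). The 100 most abundant genes took 32.7% to 36.3% of all TPM in the first set but 28.5% to 31.5% in the second set (exact p = 0.1), without overlap. The absolute depth is unknown, since TPM hold no total of reads.

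The first principal component of log2(TPM + 1) held 54.9% of the variance over the 6 libraries. It placed replicates 1, 2 and 3 at −23.4, −11.4 and −12.9 and replicates 4, 5 and 6 at 1.38, 19.97 and 26.4. The sets did not overlap on it, and replicate 4 lay nearer to replicates 2 and 3 than to replicate 6. Pairs of libraries within replicates 1 to 3 differed with an SD over genes of 0.20 to 0.234 on the log2 scale, pairs within replicates 4 to 6 with 0.297 to 0.343, and pairs across the sets with 0.258 to 0.410. Replicates 4 to 6 were thus as unlike each other as some were to replicates 1 to 3.

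**Figure D1:**
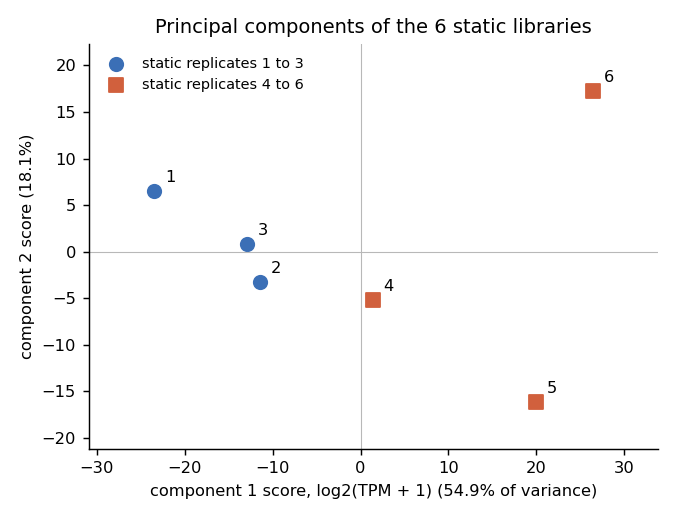
Scores of the 6 static libraries on the first principal component (x axis, 54.9% of variance) and the second (y axis, 18.1%) of log2(TPM + 1) over 11411 genes, with circles for replicates 1 to 3 and squares for replicates 4 to 6. Replicates 1 to 3 lie together at negative scores on component 1, while replicates 4, 5 and 6 are spread out, with replicate 4 at 1.38 between the sets.

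Genes were compared with limma. A gene was called where its change exceeded 1.5-fold and its adjusted p was below 0.05. In replicates 4 to 6, 214 genes were called higher (1.88% of 11411) and 67 were called lower (0.587%), 281 in all (2.46%). The replicate sets did not overlap in 3568 genes higher in replicates 4 to 6 (31.3%) and in 511 genes lower there (4.48%), the called genes among them. Over all genes tested the median log2 change was 0.14, with 8660 positive and 2751 negative values. Median-of-ratios scaling, which centres the libraries on their typical gene, shifted this median to −0.02 and left 51 genes called higher and 67 lower, so that genes higher in replicates 4 to 6 were 76.2% of calls on the deposited scale and 43.2% after scaling. All 51 of these higher genes and 49 of these lower genes were also called on the deposited scale.

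The counts depended on single libraries. Genes called higher and lower numbered 1 and 3 without static replicate 1, 56 and 17 without replicate 2, and 15 and 7 without replicate 3. They numbered 769 and 135 without static replicate 4, 72 and 49 without replicate 5 and 127 and 62 without replicate 6. Only 4 genes were called with each of the 6 libraries left out in turn: Krt18 was higher, and Ccl5, Lbp and Ccl2 were lower. With the spread estimated from all 12 static and flow libraries, 53 genes were called higher and 6 lower.

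**Figure D2:**
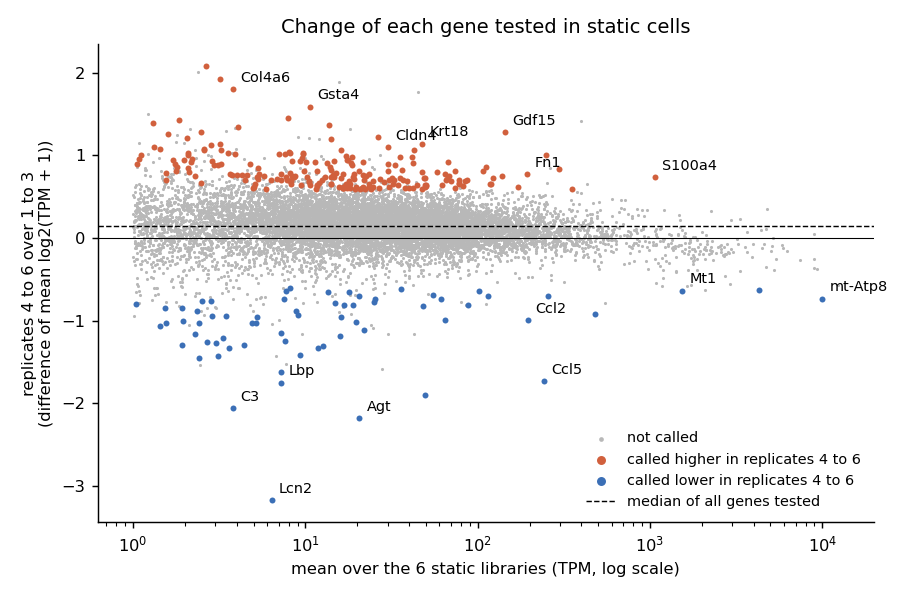
Difference of mean log2(TPM + 1) between static replicates 4 to 6 and 1 to 3 (y axis) against the mean TPM over the 6 libraries (x axis, log scale), 1 point for each of 11411 genes, with the 214 genes called higher and the 67 called lower in colour and the median of 0.14 dashed. The largest falls are those of Lcn2 and Agt, and most of the 100 most abundant genes lie below the median line.

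The chemokine genes Ccl5, Ccl2, Cxcl1 and Ccl7 were lower at baseline in replicates 4 to 6. Ccl5, which attracts T cells and monocytes, was at 353, 366 and 396 TPM in replicates 1 to 3 and at 125, 104 and 105 TPM in replicates 4 to 6. The sets lay far apart, and the log2 change was −1.73 ± 0.09 (SE; adjusted p = 2.03e-05), the smallest p-value of the genes named. Ccl2, which attracts monocytes, was at 245, 275 and 264 TPM and then at 120.4, 129 and 143 TPM (log2 change −0.996 ± 0.09, adjusted p = 8.21e-04). Cxcl1, a neutrophil attractant whose promoter is shown above, was at 62.1, 111 and 86.8 TPM against 36, 44.1 and 46.2 TPM (log2 change −0.99 ± 0.18, adjusted p = 0.0243). Its replicates 1 to 3 spread more widely than its replicates 4 to 6.

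Of the 17 genes tested of the NF-kB and chemokine list, 6 were called lower and none higher, at a list median of −0.23 (−0.40 after scaling). Over all genes tested, beside which this and the lists below stand, 0.587% were called lower and 1.88% higher. Beside the 3 chemokines, Vcam1, an adhesion molecule for leukocytes, was at 8.2, 13.2 and 9.69 TPM and then 4.83, 3.86 and 3.54 TPM (log2 change −1.15 ± 0.18, adjusted p = 0.0164). Nfkbia was at 38.6, 48.2 and 43.6 TPM against 26.9, 30.03 and 26.6 TPM, and Ccl7, which attracts monocytes, at 18.8, 24.5 and 23.1 TPM against 13.2, 16.2 and 11.7 TPM, with log2 changes of −0.62 and −0.66 (adjusted p = 0.0204 and 0.0388). These last 2 called members were named after their values had been seen. Genes of NF-kB subunits were not called: Nfkb1 stood at 45.9 to 54 TPM over the 6 libraries (log2 change −0.09, adjusted p = 0.527), Nfkb2 at 82.3 to 127 TPM (0.20, adjusted p = 0.338) and Relb at 22.8 to 34.5 TPM (0.13, adjusted p = 0.528). Cxcl10, an interferon-induced chemokine at 188 to 322 TPM, changed by −0.51 without passing the test (adjusted p = 0.0563).

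Among acute-phase and complement genes Lcn2, C3, Lbp and C1s1 fell, Lcn2 with the largest change of any gene tested. Lcn2, whose product binds bacterial iron carriers, was at 11.9, 16.2 and 8.45 TPM in replicates 1 to 3, was listed at 0 in replicates 4 and 5 and was at 1.82 TPM in replicate 6. Its log2 change was −3.18 ± 0.37 (adjusted p = 0.00738), a size that depends on the pseudocount where values are at 0. Lbp, which presents bacterial lipopolysaccharide to its receptors, was at 11.1, 13.7 and 10.2 TPM and then at 2.63, 2.97 and 2.64 TPM (log2 change −1.75 ± 0.15, adjusted p = 8.21e-04). Replicates 4 to 6 of Lbp were close together, and its call held under every alternative tried. C3, the central complement component, was at 5.42, 9.31 and 5.57 TPM against 1.44, 0.396 and 0.771 TPM (log2 change −2.06 ± 0.25, adjusted p = 0.00767). C1s1, a complement protease, was at 10.2, 14.7 and 8.37 TPM against 2.89, 5.65 and 3.72 TPM (log2 change −1.25 ± 0.23, adjusted p = 0.0251).

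Of 6 genes tested of the acute-phase and complement list, these 4 were called lower, at a list median of −1.50 against 0.14 over all genes. The other members tested did not pass: C1ra, the partner protease of C1s1, changed by −0.67 (adjusted p = 0.113) and Cfb, of the alternative complement pathway, by 0.02 (adjusted p = 0.934) at 8.47 to 12 TPM. Interferon-stimulated genes were called lower in 1 of 21 members, Gbp2, a guanylate-binding protein, at 5.19, 8.99 and 6.65 TPM against 2.48, 2.9 and 3.07 TPM (log2 change −1.03 ± 0.19, adjusted p = 0.0245), at a list median of −0.13 (−0.27 after scaling). None of 10 genes of MHC class I and antigen processing was called, at a median of −0.14. The largest change among them was that of the peptide transporter gene Tap1, 0.59 (adjusted p = 0.0921).

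**Figure D3:**
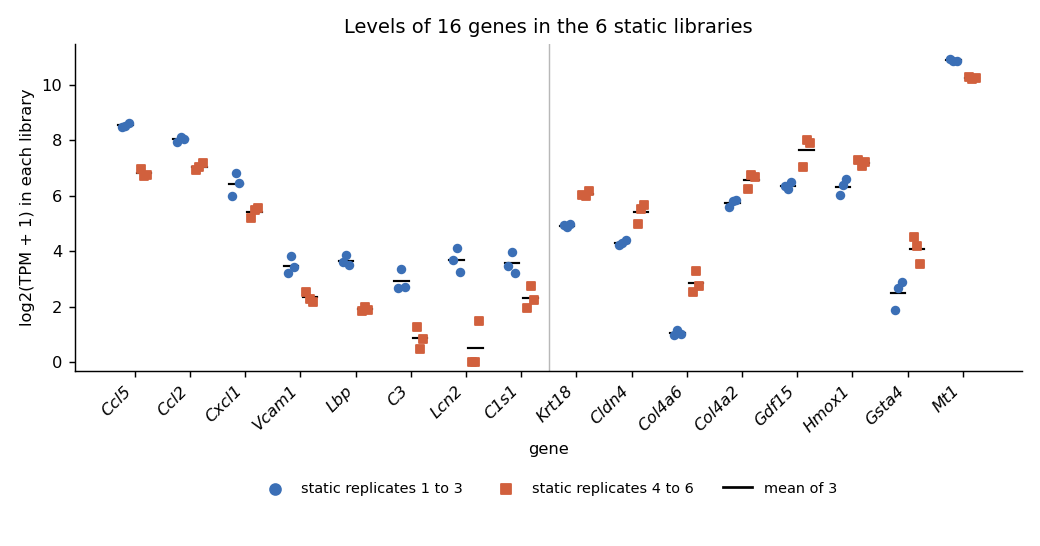
log2(TPM + 1) of 16 genes in each static library (y axis), with circles for replicates 1 to 3, squares for replicates 4 to 6 and a bar for the mean of each 3. The 8 chemokine, adhesion, acute-phase and complement genes left of the line are lower in replicates 4 to 6. Right of it, all but Mt1 are higher there. All 16 were called genes, and in no called gene did the sets overlap.

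Other genes among the 12 with the largest falls belonged to no list. Agt, the precursor of angiotensin, was at 34.9, 34.4 and 31.1 TPM in replicates 1 to 3 and at 11.5, 8.78 and 2.55 TPM in replicates 4 to 6 (log2 change −2.19 ± 0.36, adjusted p = 0.0172). Inmt, an indole methyltransferase, was at 76.7, 76.9 and 70.3 TPM against 45.5, 16.8 and 8.97 TPM (log2 change −1.903 ± 0.41, adjusted p = 0.0376). Both were lowest in replicate 6, and replicates 4 to 6 differed several-fold among themselves. Slc40a1, the iron exporter ferroportin, was at 16.4, 17.2 and 16.9 TPM against 10.003, 7.57 and 2.75 TPM (log2 change −1.33 ± 0.31, adjusted p = 0.0419), likewise with its lowest value in replicate 6. Sirpa, the receptor for CD47, fell from 13.9 ± 2.59 to 4.63 ± 1.2 TPM (mean ± SD, n = 3), and Bmf, a BH3-only promoter of apoptosis, from 6.48 ± 1.01 to 2.32 ± 1.7 TPM, with log2 changes of −1.41 and −1.29. Pklr, a pyruvate kinase of liver and red cells, was at 18.6, 13.3 and 23.5 TPM against 6.84, 7.37 and 5.92 TPM (log2 change −1.31 ± 0.18, adjusted p = 0.0121). Entrep1 (−1.63) and Smim5 (−1.34) were the remaining genes of the 12. After scaling, Inmt, Slc40a1, Smim5 and Bmf no longer passed the test, and no gene of the 12 changed its direction.

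Among epithelial genes, Krt18, the type I keratin of simple epithelia, rose in replicates 4 to 6. It was at 29.4, 28.4 and 30.2 TPM in replicates 1 to 3 and at 63.4, 63 and 71.8 TPM in replicates 4 to 6. The sets were far apart beside their own spread, with a log2 change of 1.14 ± 0.09 (adjusted p = 6.59e-04), and no alternative ended the call. Its gene lies at chr15:102028180-102032027 on GRCm38, plus strand. Cldn4, a tight junction claudin, was at 17.5, 18.7 and 19.9 TPM against 30.4, 45.4 and 50.02 TPM (log2 change 1.095 ± 0.16, adjusted p = 0.0152), with replicate 4 between the others. Krt8, the type II partner with which keratin 18 forms filaments, was at 0.0345, 0.109 and 0.25 TPM against 0.294, 0.743 and 1.09 TPM, too low to be tested.

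Of the 9 epithelial junction and keratin genes tested, Krt18 and Cldn4 were called higher and none lower, at a list median of 0.28 (0.13 after scaling). Krt19, another simple keratin, was at 19.4, 20.8 and 21 TPM against 13.5, 6.21 and 13.6 TPM, a change of −0.89 that did not pass (adjusted p = 0.0533), although the sets did not overlap. Tjp1, the scaffold ZO-1, passed the p-value threshold at a change below 1.5-fold (0.48, adjusted p = 0.0437). Cldn1 (4.09 to 6.44 TPM), F11r (63.8 to 86 TPM), Jup (24.8 to 45.6 TPM), Pkp2 (33 to 45.4 TPM) and Cdh3 (5.22 to 9.2 TPM), of tight junctions, desmosomes and adherens junctions, were not called. Cdh1, encoding E-cadherin, was at 0.395 to 1.73 TPM and Epcam at 0 to 0.221 TPM, both with a mean below the 1 TPM tested.

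Markers of the labelled cell type were partly present. Of 14 principal cell markers 5 were tested and none was called. Pax8 stood at 65.1 to 109 TPM, Pax2 at 25.3 to 38.4 TPM, Cftr at 4.11 to 5.33 TPM and Slc22a21 at 1.997 to 3.56 TPM. The secreted caput proteins Gpx5, Crisp1 and Lcn8 were listed at 0 in all 6 libraries and Aqp9 was at 0.105 to 0.238 TPM, in both replicate sets at or near 0. No clear cell, basal cell, endothelial or germ cell marker was abundant enough to be tested.

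Markers of other cells moved in part with the replicate sets. The 8 macrophage and leukocyte markers summed to 14.4 to 16.6 TPM in replicates 1 to 3 and to 15.2 to 65.6 TPM in replicates 4 to 6, nearly all of it Cd68, a lysosomal protein, at 14.1, 22.8 and 64 TPM in replicates 4 to 6. Adgre1, Tyrobp and Cd3e were listed at 0. The 6 fibroblast markers summed to 1.79 to 3.16 TPM and then to 4.26 to 8.76 TPM. Of these, Pdgfrb, a PDGF receptor, was called higher (0.748, 1.02 and 0.966 TPM against 1.98, 3.41 and 2.43 TPM, adjusted p = 0.0382), while Lum was listed at 0. The 5 smooth muscle markers summed to 1.8 to 2.41 TPM and then to 2.45 to 5.58 TPM, with 2 tested and none called. Their part in the results on matrix and chemokine genes was not tested, and in bulk RNA fewer cells of a type and less RNA per cell cannot be told apart.

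Of 20 extracellular matrix genes tested, 4 were called higher in replicates 4 to 6 (1.88% over all genes tested). Chains of type IV collagen, the network of basement membranes, were among them: Col4a2 was at 47.8, 54.6 and 56.3 TPM in replicates 1 to 3 and at 75.2, 107 and 101 TPM in replicates 4 to 6 (log2 change 0.81 ± 0.13, adjusted p = 0.0164). Col4a1, its neighbour in a shared locus, was at 79.9, 102 and 94.6 TPM against 121, 176 and 166 TPM (0.73 ± 0.14, adjusted p = 0.0276). In both genes replicate 4 lay between the sets, nearer to replicates 2 and 3. Col4a6, a chain of epithelial basement membranes outside the list, was at 0.991, 1.25 and 1.03 TPM against 4.83, 8.84 and 5.79 TPM (1.81 ± 0.21, adjusted p = 0.00641), the largest rise of a gene named apart from Npcd.

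Fn1, encoding fibronectin, was at 125, 157 and 142 TPM against 189, 258 and 288 TPM (0.77 ± 0.14, adjusted p = 0.0253), and Hspg2, encoding perlecan, at 41.1, 59.4 and 50.2 TPM against 66.3, 96.6 and 94 TPM (0.75 ± 0.16, adjusted p = 0.036). These 2 genes and the list's collagen chains made 4 of 20 members called higher, with none called lower and a list median of 0.50 (0.33 after scaling, where Col4a2 and Fn1 were still called). The sets did not overlap, higher in replicates 4 to 6, in 12 of the 20, against 31.3% of all genes tested.

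Of 14 genes of the actin cytoskeleton and of serum response factor (SRF), 4 were called higher (1.88% over all genes tested). Cnn2, a calponin that binds actin, was at 130.04, 135 and 141 TPM against 194, 214 and 215 TPM (log2 change 0.62 ± 0.08, adjusted p = 0.00904). Vcl, encoding vinculin of focal adhesions, was at 23.6, 29.2 and 26.8 TPM against 35, 46.6 and 44.7 TPM (0.64 ± 0.13, adjusted p = 0.0298). Filip1l (0.68) and Fhl2 (0.61) were the other members called, with none lower, at a list median of 0.35. The sets did not overlap, higher in replicates 4 to 6, in 12 of the 14, against 31.3% of all genes tested. After scaling none of the 4 passed both thresholds and the list median was 0.18.

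Targets of single growth pathways went both ways. Of 10 genes tested of the TGF-beta and BMP list, Id3 and Id1, inhibitors of helix-loop-helix factors, were called higher, at a list median of 0.36 (0.19 after scaling). Id3 was at 56.8, 67.9 and 67.1 TPM against 101, 128 and 84.8 TPM and Id1 at 33, 33.3 and 33.6 TPM against 46.3, 58 and 49.7 TPM, with log2 changes of 0.69 ± 0.14 and 0.60 ± 0.10 (adjusted p = 0.0302 and 0.0173). Among 15 YAP and TAZ targets, Ccn2, a matricellular growth factor, was lower at 92.2, 62.1 and 76.7 TPM against 47.3, 49.4 and 39.1 TPM (−0.74 ± 0.14, adjusted p = 0.027). The list median was 0.32 (0.15 after scaling), and Crim1, a transmembrane binder of BMPs, was higher at 57, 57.1 and 63.2 TPM against 95.2, 109.8 and 85.6 TPM (0.70 ± 0.10, adjusted p = 0.0139).

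Of 22 immediate early genes 1 was called in each direction, at a list median of 0.25 (0.09 after scaling). Egr1, a zinc finger factor induced by serum and stress, was at 27.9, 23.7 and 25.7 TPM against 32.1, 63.4 and 81.9 TPM (log2 change 1.07 ± 0.26, adjusted p = 0.0448). Its replicate 4 was close to replicates 1 to 3. Fosl1, a Fos-related subunit of AP-1, was at 129, 105 and 99.1 TPM against 59.9, 48.8 and 84.3 TPM (−0.81 ± 0.17, adjusted p = 0.037). After scaling, Ccn2 and Fosl1 were still called, while Id1, Id3, Crim1 and Egr1 were not. Mesenchymal genes were called in 1 of 9 members, S100a4, a calcium-binding protein, at 804, 812 and 748 TPM against 983, 1307 and 1769.5 TPM (0.74 ± 0.17, adjusted p = 0.0401), at a list median of 0.31. S100a4 was not called after scaling, and with 1 library left out it kept its call in 1 of 6 cases.

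Stress and metal genes changed one by one. Of 18 Nrf2 targets, Gsta4, a glutathione transferase for lipid aldehydes, was at 2.72, 5.37 and 6.46 TPM against 21.6, 17.3 and 10.6 TPM (log2 change 1.59 ± 0.28, adjusted p = 0.0227). Hmox1, heme oxygenase 1, was at 63.9, 81.5 and 95.1 TPM against 153, 133 and 146 TPM (0.85 ± 0.13, adjusted p = 0.0152). The other 16 were not called, and the list median of 0.10 became −0.07 after scaling. Mt1, a metallothionein that binds zinc, was at 1933, 1848 and 1858 TPM against 1235, 1173 and 1214 TPM (−0.64 ± 0.07, adjusted p = 0.00641), with little spread within either set, and was the 1 call among 4 metallothionein and zinc genes, whose median was −0.21. Gdf15, a secreted stress cytokine, was at 81.2, 74.6 and 89.2 TPM against 129, 258 and 237 TPM (1.28 ± 0.21, adjusted p = 0.0172), highest in replicates 5 and 6.

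Over all genes tested, 8660 of 11411 changes were positive, and 31.3% of genes were higher in replicates 4 to 6 without overlap. All 18 endoplasmic reticulum stress genes had positive changes and the sets did not overlap in 15 of them, at a list median of 0.40 (0.24 after scaling). Only Xbp1, a transcription factor of the unfolded protein response, was called, at 16.8, 19.9 and 19.4 TPM against 29.1, 29 and 33.9 TPM (0.69 ± 0.11, adjusted p = 0.0164). Of 22 ATF4 targets none was called (median 0.16, −0.01 after scaling), and Nupr1 had the largest change (1.01, adjusted p = 0.0643). Among 15 heat shock genes Hspa4l, an Hsp110 chaperone, was called higher (0.69 ± 0.16, adjusted p = 0.0423), with a list median of −0.03. Cyp51, lanosterol demethylase, was the 1 gene called of 24 in cholesterol synthesis and uptake, at 37.1, 38.9 and 39.9 TPM against 58, 60.5 and 60.8 TPM (0.62 ± 0.08, adjusted p = 0.0102). In that list, at a median of 0.32 (0.15 after scaling), 22 changes were positive, against 8660 of 11411 over all genes. None of 11 fatty acid synthesis genes was called, at a median of 0.32 (0.15 after scaling) and a largest change of 0.49 in malic enzyme, Me1 (adjusted p = 0.036). After scaling Xbp1, Hspa4l and Cyp51 were no longer called.

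Genes of hypoxia and glycolysis had negative changes in 19 of 24 members (2751 of 11411 over all genes tested), at a median of −0.27 (−0.43 after scaling). Pfkl, the liver phosphofructokinase, was the 1 member called, at 122, 166 and 143 TPM against 88.4, 75.6 and 98.8 TPM (−0.70 ± 0.13, adjusted p = 0.0238). The list spanned −1.16 for Pdk1, a kinase that inhibits pyruvate dehydrogenase (adjusted p = 0.0531), to 1.298 for Adm, encoding adrenomedullin (adjusted p = 0.104), neither of them called. All 13 mitochondrially encoded genes had negative changes, at a median of −0.49. Of these, mt-Atp8, which overlaps mt-Atp6 on the mitochondrial genome, was called on the deposited scale but not after scaling, at 15801, 11889.6 and 10005 TPM against 7035, 8623 and 6733 TPM (−0.73 ± 0.16, adjusted p = 0.0388). The 13 genes together took 6.06% to 9.60% of TPM in the first set and 4.43% to 7.36% in the second set (exact permutation p = 0.2), with overlap. The 30 nuclear genes of the respiratory chain held no call, at a median of 0.05 that turned to −0.12 after scaling, and their largest change was that of Ndufs1 (0.28, adjusted p = 0.0601).

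Cytosolic ribosomal protein genes had small negative changes in all 40 members, from −0.34 for Rps3 (adjusted p = 0.0554) to −0.01 for Rps12, and none was called. Their median was −0.16, below the 0.14 of all genes. The sets did not overlap, lower in replicates 4 to 6, in 19 of them, against 4.48% of all genes tested. Among the 100 most abundant genes, 55 of which encode ribosomal proteins, 86 changes were negative and 14 positive, at a median of −0.15. Longer transcripts had more positive changes: the median was 0.06 in the shortest of 5 equal groups of genes and 0.22 in the longest, while across groups of GC content it stayed between 0.13 and 0.16. Their part in the list medians was not tested apart from the correction for GC content and length, under which 48 genes were called higher and 66 lower.

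No gene was called in 28 genes of intraflagellar transport and the BBSome, the machinery that builds and sorts cargo in the cilium. Their median of 0.18 was 0.01 after scaling. Ift52, of the transport complex, changed most (0.44, adjusted p = 0.0437), a change below 1.5-fold. None of 5 Hedgehog pathway genes (largest Gpr161, 0.47, adjusted p = 0.0776) or 10 Wnt and Notch genes (largest Notch2, 0.52, adjusted p = 0.0592) was called. The medians of these 2 lists were 0.26 and 0.31 (0.11 and 0.17 after scaling).

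None of 30 genes of dividing cells was called, at a median of 0.09 (−0.08 after scaling), and Mki67, which encodes Ki-67, was at 48.7, 61.9 and 55.7 TPM against 64.8, 77.3 and 69.7 TPM (0.35 ± 0.11, adjusted p = 0.074). None of 15 p53 targets was called (median 0.07, −0.07 after scaling, largest Btg2 at 0.57, adjusted p = 0.105). None of 12 genes of serum and insulin starvation was called (median 0.27, largest Ccng2 at 0.64, adjusted p = 0.0627). None of 21 lysosome and autophagy genes was called (median 0.08, −0.09 after scaling), although Gabarapl1, of autophagosomes, passed the p-value threshold at −0.48 (adjusted p = 0.0164) and was called after scaling (−0.65). Of 8 replication-dependent histone genes tested, at a median of 0.50, H1f2, a linker histone, was called higher (9.08, 9.43 and 9.76 TPM against 16.5, 14.3 and 28.5 TPM, 0.94 ± 0.21, adjusted p = 0.0391), though not after scaling. Histone transcripts have near-identical copies, so their estimates are uncertain.

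Clock genes had positive changes in 13 of 15 members, at a median of 0.38 (0.22 after scaling). Over all genes tested, 8660 of 11411 changes were positive, at a median of 0.14 (−0.02 after scaling). Per1, a repressor of the clock that glucocorticoids also induce, was at 11.4, 11.4 and 12.5 TPM against 15.5, 27 and 33.7 TPM (0.98 ± 0.22, adjusted p = 0.0403). Bhlhe40, another repressor of the clock, was at 26, 30.8 and 26.2 TPM against 34.5, 49.9 and 54.3 TPM (0.70 ± 0.16, adjusted p = 0.0391). In both, replicate 4 was close to replicates 1 to 3, and neither was called after scaling. Per1 was also the 1 gene called of 7 in the androgen and glucocorticoid list, whose median was −0.01. The time of day of the cultures is not given in the sources used here.

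The other genes among the 12 with the largest rises were mostly expressed at low levels. Uchl1, a deubiquitinating enzyme, was at 13.9, 14.5 and 16.9 TPM against 29.4, 32 and 51.8 TPM (log2 change 1.23 ± 0.19, adjusted p = 0.0152). Sort1, encoding the sorting receptor sortilin, was at 8.07, 11.6 and 10.6 TPM against 17.6, 27.8 and 21.2 TPM (1.06 ± 0.18, adjusted p = 0.0172). Stag3, a meiotic cohesin subunit, was at 5.99, 8.32 and 6.63 TPM against 12.6, 21 and 27.4 TPM (1.37 ± 0.24, adjusted p = 0.0204). In each of these replicate 4 was the lowest of replicates 4 to 6. Fgf18, a fibroblast growth factor, was at 3.51, 3.004 and 3.62 TPM against 4.84, 14.1 and 18.2 TPM (1.45 ± 0.35, adjusted p = 0.0437), and Dpp6, a subunit of potassium channels, at 1.69, 2.07 and 1.61 TPM against 7.27, 7.76 and 3.82 TPM (1.34 ± 0.23, adjusted p = 0.019). Npcd had the largest rise (1.92 ± 0.48, adjusted p = 0.047), but it was listed at 0 in replicates 1 and 2, and its annotation overlaps Nptxr and Cbx6, between which reads can be split. Neither Npcd nor Fgf18 was called after scaling.

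**Figure D4:**
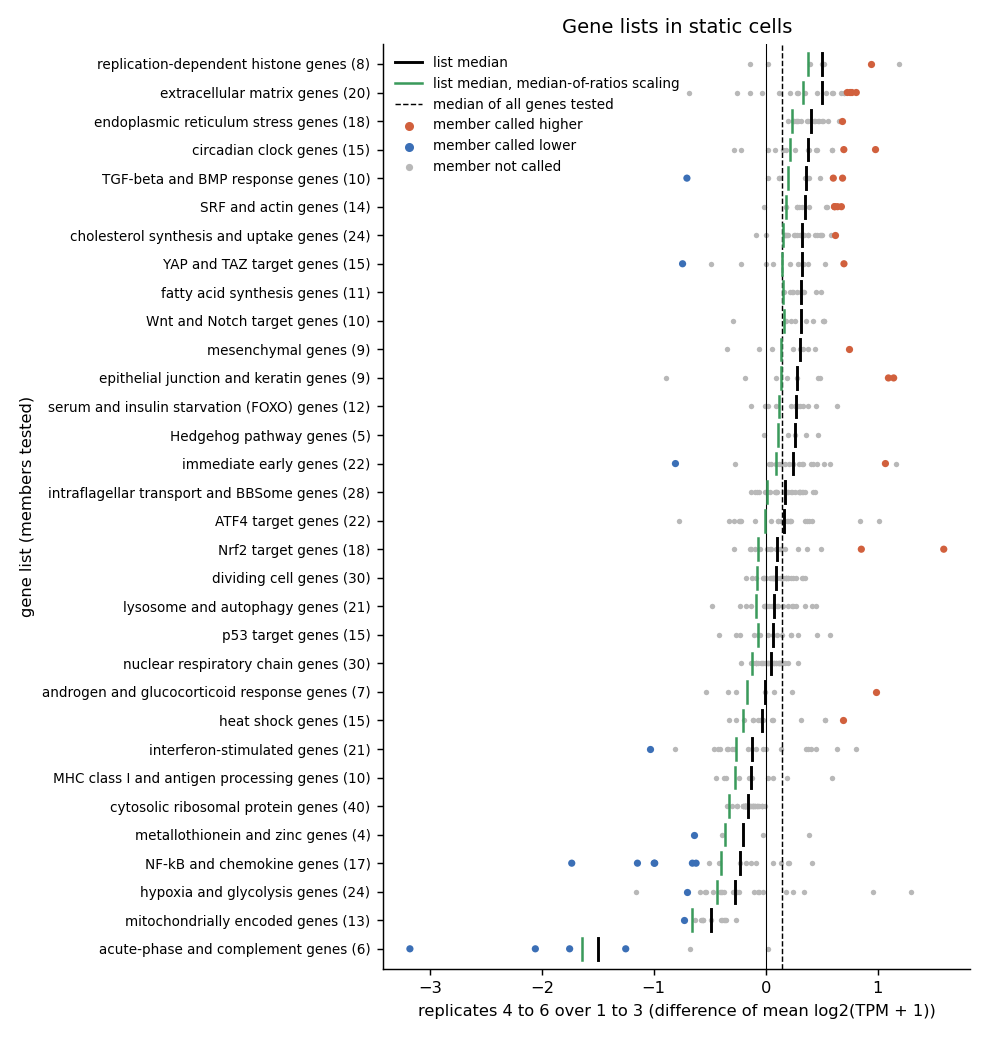
Difference of mean log2(TPM + 1) between static replicates 4 to 6 and 1 to 3 (x axis) for each tested member of 32 gene lists (y axis, number tested in brackets), with members called higher or lower in colour, list medians in black, medians after median-of-ratios scaling in green and the median of all genes, 0.14, dashed. Acute-phase and chemokine lists reach farthest to the left, and calls to the right come from lists such as matrix, actin, epithelial and Nrf2 genes.

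The same replicate sets were compared in the flow libraries, whose values did not enter the calls in static cells. Same-numbered static and flow libraries may come from 1 culture, so values are set side by side. One flow library, replicate 6, has conflicting labels and was counted as flow by its title. In flow cells 2 of 11327 genes were called higher in replicates 4 to 6 (0.0177%), Fos and Hmox1, and 1 was called lower (0.00883%), Ccl5. The sets did not overlap in 1870 genes higher (16.5%) and 427 lower (3.77%). Both counts of calls were 0 without flow replicate 3, 5 or 6, 1 and 0 without replicate 1, 7 and 3 without replicate 2, and 70 and 3 without replicate 4. At an unadjusted p under 0.05 there were 1481 genes, and the median log2 change over all genes was 0.09. Of the 214 genes called higher in static cells 212 were tested in flow cells and 211 had a positive change there, with medians of 0.75 in static cells and 0.65 in flow cells. Of the 67 called lower 66 were tested and 59 had a negative change, with medians of −0.96 in both. Over all 11268 genes tested in both, 79.2% had the same sign.

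Ccl5 was at 364, 371 and 369 TPM in flow replicates 1 to 3 and at 143, 84.3 and 99.9 TPM in flow replicates 4 to 6 (log2 change −1.78, adjusted p = 0.0447), which is close to its levels in static cells. Lbp was at 7.1, 18.5 and 6.4 TPM against 0.404, 1.8 and 0.484 TPM (−2.55, adjusted p = 0.13) and Krt18 at 23.2, 31.7 and 28.7 TPM against 74.2, 69.9 and 111 TPM (1.55, adjusted p = 0.0774). Neither was called in flow cells, although the sets did not overlap in either gene. Lcn2, Agt, C3 and Inmt had flow changes of −2.98, −2.33, −2.41 and −1.99, and Col4a6 of 1.67.

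Some genes lower at baseline in replicates 4 to 6 had higher values there under flow, without passing the test. Cxcl1 was at 170.02, 109.7 and 145 TPM in flow replicates 1 to 3 and at 390.1, 1286 and 1903 TPM in flow replicates 4 to 6, a log2 change of 2.81 against −0.99 in static cells. The sets of Cxcl1 did not overlap in either condition. The flow changes of Ccl2, Ccl7, Nfkbia, Ccn2 and Fosl1 were also positive (1.06, 1.12, 1.25, 0.64 and 0.73). In flow cells the sets overlapped in Ccl2, Ccl7, Ccn2 and Fosl1, though not in Nfkbia. The difference between the static and the flow change was tested with limma over all genes and passed for none of 11411 (smallest adjusted p = 0.271, for Cxcl1; 237 genes at an unadjusted p under 0.05), a test added after these values had been seen.

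**Figure D5:**
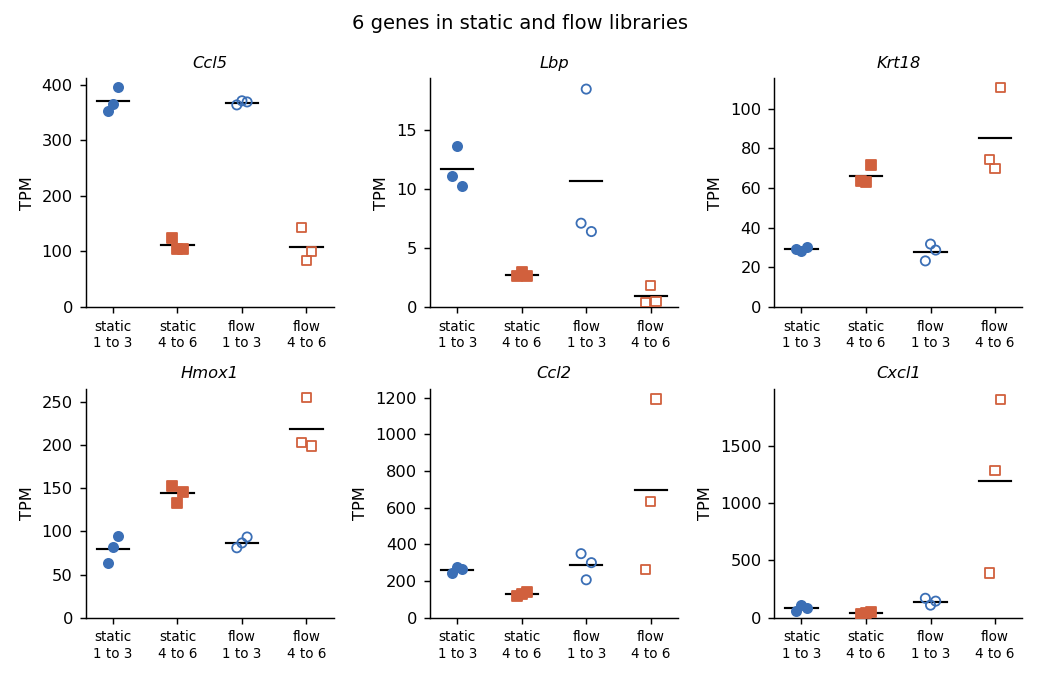
TPM of 6 genes (y axis, from 0) in static replicates 1 to 3 and 4 to 6 (filled symbols) and in flow replicates 1 to 3 and 4 to 6 (open symbols), with a bar for the mean of each 3. Ccl5, Lbp, Krt18 and Hmox1 differ between the replicate sets in the same direction in both conditions, while Ccl2 and Cxcl1 are lower in static replicates 4 to 6 and have higher means in flow replicates 4 to 6.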

How the data were processed

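RNA-seq of static DC2 cells was analysed in 6 libraries, grouped by the replicate number in their titles, with 6 flow libraries set beside them. The title of flow replicate 6 says flow and its treatment field says static, and the title was followed. The labels and methods name a directional library kit, and the methods name poly(A) selection. The authors deposited TPM per gene, estimated with kallisto 0.46.2 per the submitters' processing notes, which also name fastp 0.20.0, while the methods name Trimmomatic, Ensembl 110 transcripts and tximport. Each library of the deposited TPM adds up to 1000000, and the values are not counts, and 78 genes have no symbol. The siRNA table was not used here, and results on some genes are not reported here.

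From the deposited TPM, log2(TPM + 1) was fitted by limma 3.58.1 (R 4.3.3), with eBayes moderation following the mean level and no covariate. Genes averaging 1 TPM or more over the 6 libraries entered, and p-values were adjusted over all of them by the Benjamini-Hochberg method. Genes were called at an adjusted p under 0.05 and a change over 1.5-fold, the thresholds in the methods. Log2 changes understate those of low genes because of the pseudocount of 1. The step was tested on data drawn with known changes. Single library measures were compared with two-sided exact permutation tests in scipy 1.17.1, run with numpy 2.4.6 and pandas 2.3.3 under Python 3.11.15. Figures were drawn with matplotlib 3.10.9.

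The replicate split, the 32 gene lists and 8 marker lists, and the tests were chosen with earlier results of these data known. Named genes were the 12 with the largest change per direction among called genes without overlap and averaging 5 TPM or more in the higher set, predicted genes left out, then up to 4 called members of each list or its largest change, and principal cell and epithelial markers with their levels. Other list members were named after their values had been seen. Gene positions, GC content and length are from GENCODE M21 on GRCm38, an older annotation than that of the authors, matched by gene identifier for 21371 of 21509 genes.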

Additional observations from a re-analysis of the deposited data

Results flagged for a closer look

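Cd68 in static replicate 6 stood apart from the other static libraries: it was at 64.0 TPM there and at 13.5 to 22.8 TPM in the other 5, a gap of 0.67 of the range on the log2(TPM + 1) scale. Chance marks about 1 in 20 groups of libraries in this way. The other macrophage and leukocyte markers in that library were low, the highest being Csf1r at 1.23 TPM.

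For Cxcl1 and Nfkbia all static libraries of replicates 4 to 6 were below those of replicates 1 to 3 while all flow libraries were above. The change in flow cells minus that in static cells, on the log2 scale, was 3.80 for Cxcl1 (adjusted p = 0.271) and 1.87 for Nfkbia (adjusted p = 0.509), from a limma test of the difference itself that neither passed. Over all genes tested in static cells, 9 were lower in static and higher in flow replicates 4 to 6 without overlap and 9 were the opposite, against 1341 higher in both and 165 lower in both.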

How the results depend on the processing

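No named gene changed its direction under any alternative where it was called. Of 54 named genes called, 47 of the 47 tested kept their call at a mean of at least 5 TPM, 51 with a pseudocount of 0.1, 51 with library weights, 44 with a robust variance, 30 after scaling, 25 after correction for GC content and length, 13 with the spread from all 12 libraries and 5 with no filter on low TPM. Only Ccl5, Lbp and Krt18 were called under every one of these and with each library left out. Counts of genes called higher and lower in static cells were 4 and 4 with no filter, 346 and 116 with library weights, 51 and 67 after scaling, 48 and 66 after correction, 53 and 6 with the spread from 12 libraries and 487 and 90 with no fold threshold. With 1 library left out they ranged from 1 to 769 and from 3 to 135. In flow cells, where 2 and 1 were called, library weights gave 624 and 108, and limma called 0 and 0 with no filter, with a robust variance and after correction, although 1481 genes were at an unadjusted p under 0.05. With 1 flow library left out the counts ranged from 0 to 70 and from 0 to 3; both were 0 without flow replicate 3, 5 or 6, and 70 and 3 came without replicate 4. The cause of these shifts was not tested.

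No paired analysis was possible because replicates 1 to 3 and 4 to 6 share no number. Between flow and static cells, same-numbered libraries deviated from the mean of their 3 with correlations over genes of 0.10, 0.32, 0.10, 0.53, 0.60 and 0.55 for replicates 1 to 6, and replicates 2, 4, 5 and 6 correlated best with their own number. Replicates 1 and 3 correlated better with each other's flow library (0.24 and 0.12). Not all 6 correlations passed 0.1, so the fit without pairing was kept, and whether the libraries are paired is not settled. With the replicate block the difference between flow and static changes passed for 0 genes (smallest adjusted p = 0.285, 577 at an unadjusted p under 0.05) and without it for 0 (237). TPM keep no counts, so the counting error of genes under 5 TPM, 48 of those called higher and 23 of those called lower, is unknown.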

Other observations

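Genes outside the lists, chosen here after their values were seen, add to the account of the static cells. Il18, an inflammatory cytokine, was called higher in replicates 4 to 6 at 10.4, 12.6 and 10.4 TPM against 19.1, 28.8 and 21.9 TPM (log2 change 0.99 ± 0.15, adjusted p = 0.0164), and Ptx3, a secreted pattern recognition protein, at 0.9998, 1.02 and 1.07 TPM against 3.7, 3.48 and 2.17 TPM (0.999, adjusted p = 0.0281). Ccl8, a monocyte attractant, was called higher too, at 0.189, 0.615 and 0 TPM against 1.47, 2.7 and 2.84 TPM (1.396, adjusted p = 0.0227). It averaged 0.268 TPM in replicates 1 to 3, so it entered the test only through its values in replicates 4 to 6. In flow cells its change was 0.0957, with replicates 1 to 3 at 0 to 1.59 TPM and replicates 4 to 6 at 0 to 3.68 TPM. Il18 and Ccl8 were still called after scaling, and Ptx3 was not.

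The epithelial transcription factor genes Elf3 and Ehf were called lower. Elf3 was at 9.99, 14.3 and 11.1 TPM against 5.9, 7.15 and 4.78 TPM (−0.88, adjusted p = 0.029) and Ehf at 5.998, 4.43 and 3.56 TPM against 2.56, 0.889 and 0.831 TPM (−1.27, adjusted p = 0.0357). The cell surface genes Cd24a (197, 212 and 218 TPM against 333, 474 and 334 TPM, 0.84, adjusted p = 0.0152) and Msln, encoding mesothelin (91.6, 112 and 106 TPM against 157, 173 and 189.9 TPM, 0.74, adjusted p = 0.0102), were called higher. Genes of 2 conjugating enzymes were called lower, with Sult1c2 at 27, 34.2 and 28.8 TPM against 10.3, 18.5 and 12 TPM (−1.12, adjusted p = 0.0172) and Ugt1a1 at 3.54, 5.48 and 3.28 TPM against 2.62, 0.775 and 0.436 TPM (−1.26, adjusted p = 0.0492). Selenop, the carrier of selenium, was at 55.9, 70.2 and 58.8 TPM against 37.5, 37.3 and 28.7 TPM (−0.82, adjusted p = 0.0155).

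Gja4, a connexin gene, was called lower and was at 1.999, 2.46 and 2.41 TPM against 0.872, 0.556 and 0.322 TPM (−1.07, adjusted p = 0.0245). After scaling Ehf, Msln and Ugt1a1 were no longer called. Of genes of the primary cilium outside the list, Ttbk2, a kinase that starts ciliogenesis, changed by 0.74, Wdr19, of the intraflagellar transport complex A, by 0.64, and Tmem231, of the transition zone, by 0.61 (adjusted p = 0.036, 0.0477 and 0.0431). All 3 were called higher on the deposited scale and none after scaling. They were picked for their calls, and other cilium genes outside the list were not counted. Of all genes tested, 1.88% were called higher. H2ac24, a histone gene with near-identical copies, was at 699, 537 and 636 TPM against 351, 373 and 270.02 TPM (−0.92, adjusted p = 0.0122).

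The median log2 change of genes lay between 0.12 and 0.20 on each of the 20 chromosomes 1 to 19 and X, and was −0.49 over the 13 genes of the mitochondrial genome.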
